A study of Mus musculus with 6 samples.

Results

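Described here are 10 genes of the high-affinity IgE receptor and the signalling proteins next to it: the receptor subunit genes Fcer1a, Ms4a2 and Fcer1g, the kinase genes Lyn, Syk and Btk, the adaptor genes Lat, Lat2 and Gab2, and the lipid phosphatase gene Inpp5d. They were chosen by name. Each was read from the array row whose platform annotation gives that symbol and no other, and 9 of the 10 had such a row among 30102 named genes, 1 row each. No row was named Lyn alone, and Lyn was not analysed here. Whole-transcript arrays measured total RNA from bone marrow-derived mast cells (BMMCs), grown for 6 weeks from C57BL/6J femur marrow with recombinant IL-3 and a culture supernatant that supplies stem cell factor. The ionomycin group (3 arrays) spent 1 h in Tyrode's buffer with 1 µg/mL of the calcium ionophore ionomycin, then 3 h in growth medium, and was taken 4 h after activation. The naive group (3 arrays) had the same buffer without ionomycin and the same 3 h in medium. The labels name no genetic change in either group. Neither whether marrow was pooled nor whether replicates were separate cultures is stated, so every p-value measures the spread between these arrays, which may be technical.

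The receptor holds IgE on the mast cell surface. Its alpha chain (Fcer1a) binds the antibody, while the beta chain (Ms4a2) and the gamma chain (Fcer1g) carry tyrosine motifs in their tails. When antigen clusters the receptor, the kinase Lyn phosphorylates those motifs, the kinase Syk docks on the gamma chain, and adaptors such as Lat, Lat2 and Gab2 gather the enzymes that make calcium signals and inositol lipids. Btk is recruited by the lipid that PI 3-kinase makes, and SHIP1, the product of Inpp5d, removes a phosphate from that lipid and restrains degranulation. Ionomycin raises calcium without the receptor, so the stimulus used here bypasses receptor clustering.

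Values are log2 signals, differences are ionomycin minus naive on that scale, and 3 arrays a group set the precision. In both groups replicate 1 lay away from replicates 2 and 3. On the first principal component of all genes (52.6% of the variance) the replicate 1 arrays scored -47.99 in the naive and -21.18 in the ionomycin group, while scores of the remaining 4 arrays ran from 13.03 to 21.86. Results are therefore also given without both of them. Over all genes the median difference was 0.05 as deposited and -0.01 after centring each array on its median. In bulk RNA, fewer cells of a type and less RNA per cell cannot be told apart.

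Of the 9 measured members, 8 had a lower mean after ionomycin, where 35.4% of all genes did, and 1, Fcer1g, a higher one. After centring all 9 had a lower mean, and 54.2% of all genes did. All 9 were above a background level of 6.09, the 95th percentile of chemosensory receptor genes. Only 18673 of the 30102 genes were. Shares of all genes, here and below, thus include genes at background, and the shares among genes above it were not computed. Inpp5d fell past the threshold (limma, adjusted p under 0.05 over all genes), and the other 8 did not pass. This call was lost with a block on the replicate number, after quantile normalization, after centring and whenever 1 array was left out. A block that sets replicate 1 apart gave 4 members lower and 0 higher, where 2.47% and 2.25% of all genes were called. The fit reported gave 1 of 9 lower, where 0.0598% of all genes were called lower, and 0 of 9 higher, where 0.289% were. Before adjustment, at p under 0.05, 4 members were lower (Inpp5d, Syk, Ms4a2 and Lat2) and 0 higher, against 5.44% and 10.2% of all genes. The groups' arrays did not overlap for 5 members, all lower (those 4 and Fcer1a), against 7.31% of all genes lower and 18.9% higher without overlap. The median difference of the 9 was -0.31, or -0.33 after quantile normalization and -0.38 after centring.

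**Figure D1:**
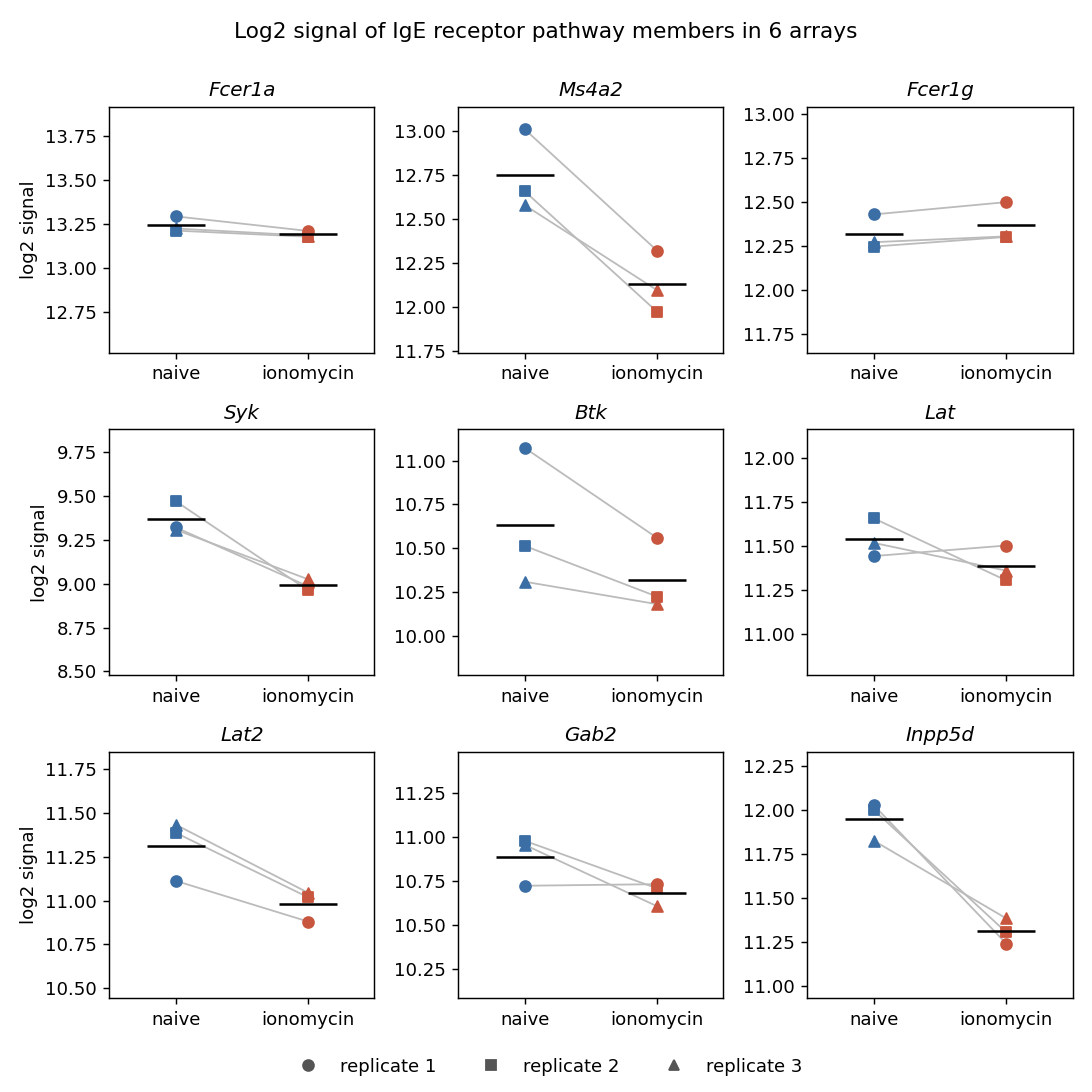
Log2 signal of the 9 measured members in each array (y axes of equal span, 1 panel per gene), naive at left and ionomycin at right; marker shapes give the replicate number, grey lines join equal numbers and black bars are group means (n = 3). Inpp5d and Ms4a2 show the widest gaps between groups (means 0.64 and 0.62 apart), and Fcer1a and Fcer1g the narrowest.

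Of the receptor subunits, the beta chain gene had the lower values after ionomycin, while the alpha and gamma chain genes differed by -0.05 and 0.05. Ms4a2 was at 13.01, 12.66 and 12.58 in naive replicates 1, 2 and 3, and at 12.32, 11.97 and 12.10 in ionomycin replicates 1, 2 and 3. All 3 ionomycin arrays were below all 3 naive arrays, and the replicate 1 array was the highest of its group in both. The mean went from 12.75 ± 0.23 to 12.13 ± 0.18 (SD, n = 3 per group), a difference of -0.62 ± 0.14 (SE; 95% interval -0.97 to -0.28) which limma did not call (adjusted p = 0.163). A block on the replicate number gave a limma adjusted p of 0.0557. Without both replicate 1 arrays the difference was -0.59 and did pass (limma adjusted p = 0.0231).

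Fcer1a, the IgE-binding chain, was at 13.29, 13.21 and 13.22 in the naive arrays and 13.21, 13.18 and 13.18 in the ionomycin arrays. The highest ionomycin array was just below the lowest naive array, and the arrays of each group lay close together. Its difference was -0.05 ± 0.05 (SE, limma adjusted p = 0.627), with a 95% interval of -0.18 to 0.08, and a fall as large as the 0.62 measured for Ms4a2 lies outside that interval. It was -0.12 after centring, -0.04 without both replicate 1 arrays and -0.03 without naive replicate 1. Fcer1g, whose gamma chain also serves other Fc receptors, was at 12.43, 12.25 and 12.27 in naive and 12.50, 12.30 and 12.30 in ionomycin arrays. These groups overlapped, and at each replicate number the ionomycin array was the higher by 0.07, 0.06 and 0.03. Its mean difference was 0.05 ± 0.08 (SE; 95% interval -0.15 to 0.26; limma adjusted p = 0.764), which became -0.01 after centring and was 0.04 without both replicate 1 arrays.

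Whether the subunits moved apart was tested on the difference of their log2 signals within each array, which removes any shift common to an array. Because the rows differ in probes, only the change of such a difference can be read, not its level. Ms4a2 minus Fcer1g was 0.58, 0.41 and 0.31 in the naive arrays and -0.18, -0.33 and -0.21 in the ionomycin arrays, with no overlap. It moved by -0.67, and by -0.76, -0.74 and -0.52 at replicate numbers 1, 2 and 3. Ms4a2 minus Fcer1a moved by -0.57, from -0.49 ± 0.19 to -1.06 ± 0.16 (SD, n = 3 per group), again without overlap. For both pairs the two-sided exact permutation p was 0.10, the smallest that 3 arrays against 3 allow, and 0.15 after Benjamini-Hochberg adjustment over the 3 pairs. Fcer1a minus Fcer1g moved by -0.11 with overlapping groups (exact permutation p = 0.30, adjusted 0.30). With 3 arrays against 3 this test cannot go below 0.05, so the values are given as a description.

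**Figure D2:**
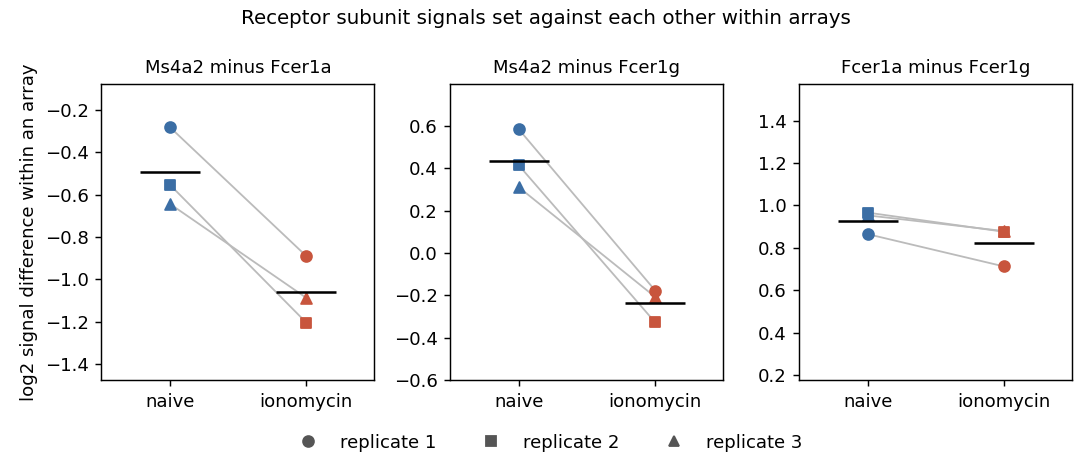
Difference between the log2 signals of 2 receptor subunit genes within the same array (y axis), for naive and ionomycin arrays; marker shapes give the replicate number, grey lines join equal numbers and black bars are group means (n = 3). Both differences that involve Ms4a2 are lower in every ionomycin array, by means of 0.57 and 0.67, and Fcer1a minus Fcer1g overlaps.

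The sequences around the starts of Ms4a2 and Fcer1a are shown because these genes belong to 1 receptor and differed in the size of their values' shift. RefSeq promoters (GRCm38.p6; 250 bases before to 50 after the start, gene strand) were found for 7 of the 10 genes; Lyn, Lat2 and Gab2 are named only. GATA factors are regulators of mast cell genes, and their letters AGATAA and TGATAA were searched on both strands; capitals mark the matches. The Ms4a2 window lies at chr19:11623670-11623969 on the minus strand, and that of Fcer1a at chr1:173227180-173227479, also minus.
Ms4a2: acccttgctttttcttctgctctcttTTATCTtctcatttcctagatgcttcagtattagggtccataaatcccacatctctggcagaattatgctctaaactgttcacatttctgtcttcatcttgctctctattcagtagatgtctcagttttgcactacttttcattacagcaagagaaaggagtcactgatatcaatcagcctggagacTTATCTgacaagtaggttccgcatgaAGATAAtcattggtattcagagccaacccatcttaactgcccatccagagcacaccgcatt
Fcer1a: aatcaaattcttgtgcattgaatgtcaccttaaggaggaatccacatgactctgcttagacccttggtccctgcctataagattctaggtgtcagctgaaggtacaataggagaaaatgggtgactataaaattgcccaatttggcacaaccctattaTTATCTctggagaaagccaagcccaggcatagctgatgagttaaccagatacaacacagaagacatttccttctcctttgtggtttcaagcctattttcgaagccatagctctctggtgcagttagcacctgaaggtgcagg

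Ms4a2 held 3 GATA matches, which start at positions -224, -37 and -11 from the start of the gene, and Fcer1a held 1, at -92. Among the members, which have 8 windows for 7 genes, 4 of the 8 windows had a match (Ms4a2, Fcer1a, Inpp5d and 1 of the 2 Syk starts), and 18.6% of 32851 promoter windows of this length did. The PU.1 letters GAGGAA, both strands, were in 5 of the 8 windows (28.3% of all windows), and the E-box letters CACATG or CACGTG that MITF can bind were in 2 (20.4%). No match of one motif overlapped a match of another in these windows. A match describes letters only, and no binding was measured. Gata2, which encodes a mast cell GATA factor, had means of 12.12 (naive) and 11.90 (ionomycin; log2 difference -0.21, limma adjusted p = 0.240).

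Of the kinases, Syk was lower in all 3 ionomycin arrays while the groups overlapped for Btk. Syk, the kinase that docks on the gamma chain, was at 9.32, 9.47 and 9.31 in naive arrays and 8.98, 8.96 and 9.02 in ionomycin arrays. The 3 ionomycin values lay within 0.06 of each other and below every naive value. Its difference of -0.38 ± 0.07 (SE; 95% interval -0.54 to -0.22), 1.30-fold lower, passed neither without the block (limma adjusted p = 0.0964) nor with it (0.0956). Without both replicate 1 arrays Syk was at -0.40 (limma adjusted p = 0.0716).

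Btk, a Tec-family kinase that helps activate phospholipase C gamma, was at 11.07, 10.51 and 10.31 in the naive arrays and 10.56, 10.23 and 10.18 in the ionomycin arrays. Replicate 1 was the highest in both groups, and ionomycin replicate 1 exceeded naive replicates 2 and 3. The difference was -0.31 ± 0.21 (SE, limma adjusted p = 0.473), lower at all 3 replicate numbers by 0.51, 0.29 and 0.13. The block narrowed its SE to 0.09, and limma's adjusted p was then 0.146. Without both replicate 1 arrays the difference was -0.21 (limma adjusted p = 0.232). Without naive replicate 1 alone it was -0.09, and without naive replicate 3 it was -0.47.

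Of the adaptors, Lat2 was lower in every ionomycin array, and Lat and Gab2 were lower at replicate numbers 2 and 3 and not at 1. Lat2 encodes the membrane adaptor NTAL, a relative of LAT. It was at 11.11, 11.39 and 11.43 in naive and 10.88, 11.02 and 11.04 in ionomycin arrays. The groups did not overlap, although in each the replicate 1 array was the lowest, opposite to its place for Ms4a2 and Btk. The difference was -0.33 ± 0.10 (SE; 95% interval -0.58 to -0.08; limma adjusted p = 0.244, and 0.0965 with the block). Without both replicate 1 arrays it was -0.38 and passed (limma adjusted p = 0.0440).

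Lat, the scaffold that Syk phosphorylates and that holds phospholipase C gamma, was at 11.44, 11.66 and 11.52 in naive and 11.50, 11.30 and 11.36 in ionomycin arrays. The groups overlapped, with replicate 1 higher after ionomycin by 0.06 and replicates 2 and 3 lower by 0.35 and 0.16. The mean difference was -0.15 ± 0.08 (SE, limma adjusted p = 0.400). It was -0.26 without both replicate 1 arrays (limma adjusted p = 0.140), -0.09 without naive replicate 2 and -0.29 with array weights, where it passed (limma adjusted p = 0.0349). Gab2, which brings PI 3-kinase to the receptor complex, was at 10.72, 10.98 and 10.96 in naive and 10.73, 10.71 and 10.61 in ionomycin arrays. Its replicate 1 arrays were 0.01 apart, and the ionomycin arrays of replicates 2 and 3 were lower by 0.27 and 0.35. The mean difference of Gab2 was -0.20 ± 0.09 (SE, limma adjusted p = 0.328); without both replicate 1 arrays it was -0.31 (limma adjusted p = 0.0820).

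Inpp5d, which encodes the restraining phosphatase SHIP1, was the 1 member past the threshold. It was at 12.03, 12.00 and 11.83 in naive replicates 1, 2 and 3, and at 11.24, 11.31 and 11.39 in ionomycin replicates 1, 2 and 3. The lowest naive array stood well above the highest ionomycin array, and the fall was 0.79, 0.70 and 0.44 at the 3 numbers. The mean went from 11.95 ± 0.11 to 11.31 ± 0.07 (SD, n = 3 per group), 1.56-fold lower (-0.64 ± 0.08 SE; 95% interval -0.83 to -0.45; limma adjusted p = 0.0451). In the alternatives that can change the difference, its size stayed between -0.71 and -0.57. The call did not hold: Inpp5d passed in 5 of 16. In the fit blocked on replicate number its limma adjusted p was 0.0702. It was 0.0799 after quantile normalization and 0.0539 after centring, and between 0.0644 and 0.268 when any 1 of the 6 arrays was left out. Without both replicate 1 arrays it passed (limma adjusted p = 0.0334).

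The start region of Inpp5d is shown as that of the member past the threshold, with the GATA match in capitals (position -156). It lies at chr1:87620062-87620361 on the plus strand (RefSeq, GRCm38.p6). Its 2 PU.1 matches, at positions -20 and 4, are left in lower case.
Inpp5d: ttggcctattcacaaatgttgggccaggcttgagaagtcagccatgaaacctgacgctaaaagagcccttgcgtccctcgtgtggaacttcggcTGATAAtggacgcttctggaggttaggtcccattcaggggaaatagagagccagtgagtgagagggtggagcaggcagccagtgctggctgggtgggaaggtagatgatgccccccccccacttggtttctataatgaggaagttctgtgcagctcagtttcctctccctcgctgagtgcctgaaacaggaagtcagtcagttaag

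**Figure D3:**
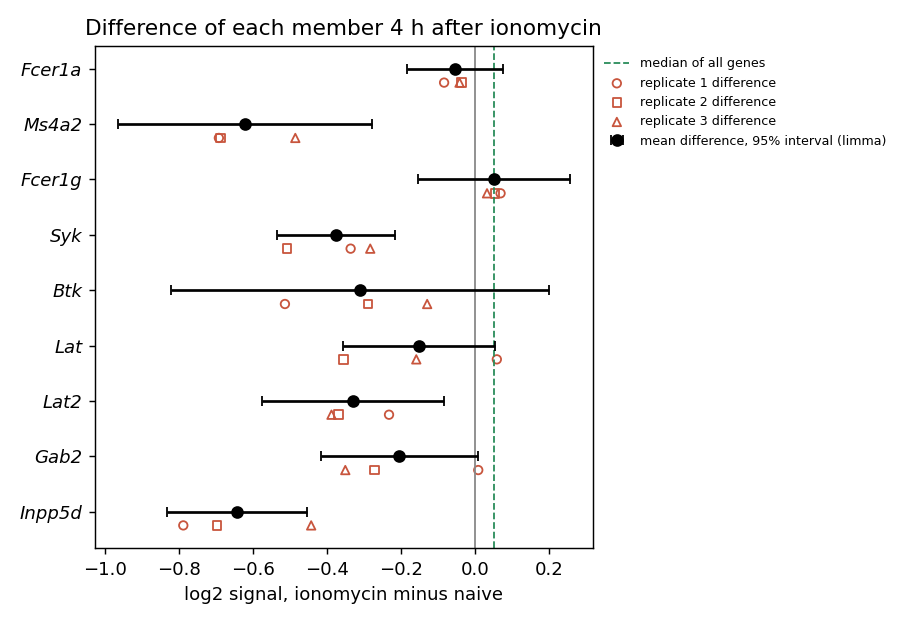
Difference in log2 signal between ionomycin and naive arrays for each member (x axis); filled points with bars are the mean difference and its 95% interval from limma (n = 3 per group), open symbols the differences at each replicate number, and the dashed line the median of all genes, 0.05. Intervals of Inpp5d, Ms4a2, Syk and Lat2 lie below 0, and the others include it.

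The number of members called changed with the block and with the replicate 1 arrays, among other settings. In the fit blocked on replicate number, limma called 0 of the 9 members (0 higher and 0 lower), where 0.110% of all genes were lower and 0.395% higher. With a block of 2 levels, replicate 1 against replicates 2 and 3, 4 were lower and 0 higher (Ms4a2, Syk, Lat2 and Inpp5d; limma adjusted p = 0.0102, 0.0356, 0.0358 and 0.0172), where 2.47% of all genes were lower and 2.25% higher. Without both replicate 1 arrays 3 were lower and 0 higher (Ms4a2, Lat2 and Inpp5d), where 1.43% and 1.41% were. The direction was the same for 8 of the 9 members in all alternatives, and Fcer1g alone changed sign, at values near 0. Several alternatives, such as the blocks, change only the test and not the difference, so they could not alter a direction. Fcer1a, Fcer1g and Btk passed in none of the 16 alternatives.

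**Figure D4:**
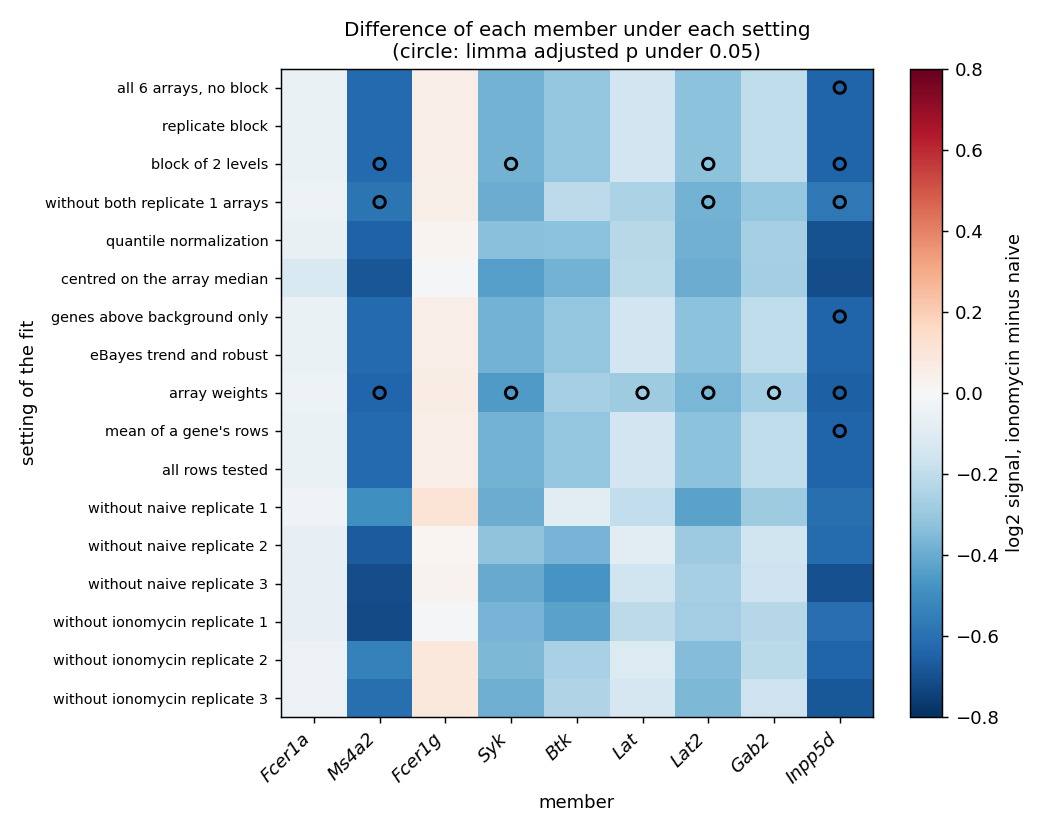
Difference in log2 signal (colour, ionomycin minus naive) of each member (columns) under each of 17 settings of the limma fit (rows); circles mark an adjusted p under 0.05. Inpp5d and Ms4a2 are the darkest columns in most rows, and circles for Inpp5d are missing in 11 of the 16 alternatives.

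Beyond the members, 71 of 78 listed genes of the receptor's wider pathway were measured. None passed in limma without the block: 0 were called in either direction, where 0.289% of all genes were called higher and 0.0598% lower. Before adjustment, at p under 0.05, 9 of the 71 were higher and 21 lower, to be read against the 10.2% and 5.44% of all genes. Their median difference was -0.05 (-0.12 after centring), against -0.31 for the members and 0.05 for all genes. The extremes of the 71, named after their values were seen, were Grap2 at -0.91 and Ptpn22, listed among the inhibitors, at 1.29 (limma adjusted p = 0.240 and 0.188). Without both replicate 1 arrays they were at -1.14 and 0.81 and passed (limma adjusted p = 0.00525 and 0.0175). With the block 1 gene passed as lower, Vav1, and 0 as higher, where 0.110% of all genes were called lower and 0.395% higher. With the block of 2 levels 2 of the 71 were higher and 12 lower, where 2.25% and 2.47% of all genes were. Vav1, an exchange factor for Rac that Syk phosphorylates, averaged 10.40 ± 0.19 in the naive group and 9.64 ± 0.11 after ionomycin (SD, n = 3; log2 difference -0.75 ± 0.11 SE). Its limma adjusted p was 0.0702 without the block and 0.0462 with it.

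Pik3cg and Inppl1 apart, the other pathway genes named below have the smallest p in their role group. None of those named below passed without the block or with the block on replicate number. With the block of 2 levels Dok2 and Nck2 passed as higher, and Fcgr2b, Fes, Prkcb, Prkcd, Pik3cd and Pik3cg as lower. Without both replicate 1 arrays Dok2 passed as higher and Gab3 as lower. Of the 5 IgG and low-affinity IgE receptor genes, Fcgr2b, an inhibitory IgG receptor, differed by -0.51 (limma adjusted p = 0.0999) and Fcgr3, an activating one that uses the gamma chain, by -0.40 (0.295). Among 6 other tyrosine kinases, Fgr was at 0.22 and Fes at -0.39 (limma adjusted p = 0.230 and 0.234). Among 14 other adaptors, Nck2 was at 0.33 and Gab3, a relative of Gab2, at -0.39 (limma adjusted p = 0.127 and 0.142). Of 12 lipid kinase and phospholipase genes 10 had a lower mean, as deposited and after centring, where 35.4% and 54.2% of all genes did. The smallest p-values were those of the PI 3-kinase subunit genes Pik3r1 (-0.32) and Pik3cd (-0.37; limma adjusted p = 0.165 and 0.205), and the lowest difference that of Pik3cg (-0.72, limma adjusted p = 0.232), which was named after its values were seen. Of the other lipid phosphatases, 3 were measured, and 2 of them had a lower mean: Inpp4a was at 0.48, Inpp4b at -0.35 and Inppl1, which encodes SHIP2, at -0.19 (limma adjusted p = 0.166, 0.431 and 0.484).

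Sos1, a Ras exchange factor, differed by -0.30 (limma adjusted p = 0.158). In its group of 10 exchange factors and GTPases 8 had a lower mean, where 35.4% of all genes did. After centring the count was again 8, against 54.2% of all genes. Of the protein kinase C genes, Prkcb was at -0.30 and Prkcd at -0.42 (limma adjusted p = 0.119 and 0.233). In the group of 13 inhibitors, Dok2, an adaptor that dampens Ras signalling, was at 0.56, and Ubash3b, a phosphatase that acts on Syk, at -0.38 (limma adjusted p = 0.0943 and 0.142). The group's median was -0.05. Before adjustment 4 of the 13 were higher and 4 lower at p under 0.05, against 10.2% and 5.44% of all genes.

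**Figure D5:**
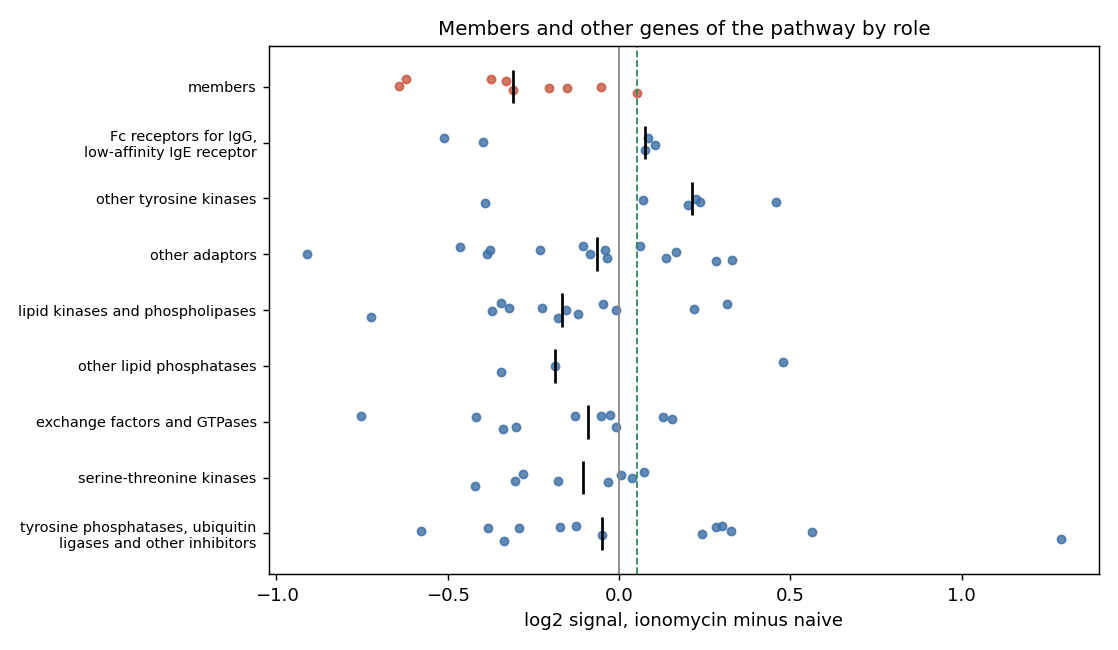
Difference in log2 signal between ionomycin and naive arrays (x axis) for the 9 members (top row) and 71 other pathway genes by role; each point is 1 gene, shifted vertically at random for visibility, black bars are medians and the dashed line is the median of all genes, 0.05. The median of the members is -0.31; medians of the other groups run from -0.19 to 0.21.

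For the 2 members with the smallest p, the genes with the most similar profile over the 6 arrays were sought among genes above background, by the root mean square distance between profiles centred on their own mean. Nearest to Inpp5d were Gm5512 (distance 0.03), Pgr (0.06), Pot1a (0.06) and Gna14 (0.06), against a median distance of 0.38 over 18672 genes. Gna14, a G protein alpha subunit gene, was the 1 of these 4 that passed (log2 difference -0.60, limma adjusted p = 0.0451, and 0.0674 with the block). Nearest to Syk were Retreg2 (0.02), Scamp1 (0.02), Nek7 (0.03) and Dip2a (0.04), against a median distance of 0.26, and none of these passed. The distance includes the difference between the groups, so differences near that of the member follow from the choice. The calls of these nearest genes are therefore no separate evidence, and the genes are named for likeness only.

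The mast cell label was checked against a list of 10 markers other than the receptor. All 9 with a row were above the background level of 6.09, the 95th percentile of 1580 chemosensory receptor genes, and the mean of the list ran from 12.00 to 12.12 in naive and from 12.04 to 12.10 in ionomycin arrays. Limma called 0 of the 9, with 1 higher (Hdc) and 2 lower (Kit and Gata2) before adjustment at p under 0.05, against 10.2% and 5.44% of all genes. The protease genes Cpa3, Tpsb2, Cma1 and Mcpt4 differed by -0.04, -0.02, 0.01 and 0.05. Of the transcription factor genes, Mitf differed by 0.03 and Gata2 by -0.21 (limma adjusted p = 0.948 and 0.240). The receptor genes Kit and Mrgprb1 were at -0.39 and -0.34 (limma adjusted p = 0.222 and 0.347), and the histamine synthesis gene Hdc at 1.04 (0.180). Basophils also carry the receptor: of their 4 markers 3 were above background, with list means of 8.76 to 9.02 in naive and 8.72 to 9.02 in ionomycin arrays. Among them, Mcpt8 differed by 0.09 and Cd200r3 by -0.29 (limma adjusted p = 0.939 and 0.165). Mcpt8 was at 10.36, 9.20 and 9.03 in naive replicates 1, 2 and 3. In ionomycin replicates 1, 2 and 3 it was at 10.60, 9.14 and 9.11. The replicate 1 array was thus the highest of both groups for Mcpt8, whereas for the basophil marker Il3ra it was the lowest (9.15 naive, 9.37 ionomycin). Some markers of other cells stood higher after ionomycin without passing: eosinophil list means ran from 5.75 to 5.83 in naive and from 5.98 to 6.36 in ionomycin arrays, with 2 of 4 markers above background. Those of macrophages (5 of 5 above background) ran from 7.19 to 7.43 and from 7.27 to 7.64, and those of T cells (3 of 4) from 6.18 to 6.33 and from 6.35 to 6.45. Those of erythroid cells (1 of 2 measured above background) ran from 6.89 to 7.14 and from 7.22 to 7.37, and those of B cells (2 of 3) from 5.75 to 5.77 and from 5.78 to 5.95. Dendritic cell list means, with 0 of 4 markers above background, ran from 5.31 to 5.36 and from 5.43 to 5.49. Megakaryocyte list means (3 of 3 measured above background) ran from 9.15 to 9.19 and from 9.16 to 9.41, and those of neutrophils (4 of 5) from 6.34 to 6.48 and from 6.42 to 6.47. The eosinophil marker Siglecf differed by 0.56 (limma adjusted p = 0.0718). Ccr3, an eosinophil marker below background, was at 5.9, 4.6 and 4.4 in ionomycin replicates 1, 2 and 3 (naive mean 4.4). Over all 23 markers of other cells above background, differences ran from -0.29 to 0.56, and limma called 0 (7 higher and 1 lower before adjustment at p under 0.05, to be read against 10.2% and 5.44% of all genes). The part of these shifts in the members' values was not tested.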

How the data were processed

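Groups and replicate numbers were taken from the sample titles. The authors deposited log2 signals per transcript cluster, 65770 rows by 6 arrays, made with the R package oligo, per the submitters' processing notes. Its version, the normalization and the build were not given in the sources used here. The log2 scale was inferred from the range of the values (3.01 to 14.6). Centring and scaling of the arrays are unknown; array medians ran from 5.88 to 6.03. No 2 arrays held identical values.

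Of the rows, 30439 have 1 gene symbol, 2146 several and 33185 none; symbols of 827 were updated by Entrez ID (RefSeq, GRCm38.p6). The brightest row by 6-array mean stood for each of 252 genes that had more than 1, leaving 30102 genes. Differences were tested in limma 3.58.1 (lmFit, eBayes; R 4.3.3 with data.table at version 1.17.8), two-sided, in 1 fit of the 6 arrays with neither block nor filter, with Benjamini-Hochberg adjustment over all genes and a threshold of 0.05; the fit was tested on simulated data. Replicate numbers are shared between groups: deviations from the group means correlated at 0.711, 0.476 and 0.469 for the same numbers, although the crossed values of numbers 2 and 3 (0.481 and 0.524) were as high. The fit reported has no block; since all 3 correlations are above 0.1, values from a fit blocked on the number stand beside results it changes. Within-array differences of subunits were compared by exact permutation.

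Named are all measured members; pathway genes that passed with or without the block and the 2 with the smallest p per role group; the mast cell markers, with other cells' markers above background mostly given by their range; and the 4 nearest profiles of 2 members. Grap2, Ptpn22, Pik3cg and Inppl1 were named outside this rule. Members, lists, rule and alternatives were chosen with earlier results of these data known.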

Additional observations from a re-analysis of the deposited data

How the results depend on the processing

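The 9 members' differences kept their direction in all 16 alternatives, except Fcer1g, which was at -0.013 after centring and from -0.012 (without ionomycin replicate 1) to 0.11 when 1 array was left out. Some alternatives leave every member's difference unchanged, so they could not reverse it. These are the replicate block, the block of 2 levels, the filter on background, trend and robust settings, the mean of a gene's rows and all rows tested. The 3 within-array subunit differences moved by less than the spread between replicates in the 9 settings that can move them, of 13 run, although Fcer1a minus Fcer1g went from -0.11 to -0.05 without ionomycin replicate 1. Leaving out 1 of 3 arrays cannot move a group mean by more than that spread, so the 6 fits without 1 array could not fail. Only quantile normalization, array weights and the fit without both replicate 1 arrays could have moved them further. The number of members called lower, 1 in the design without a block, was 0 with the replicate block, after quantile normalization, after centring, with eBayes trend and robust settings, with all rows tested and in each of the 6 fits without 1 array (0 to 0); it was 4 with the block of 2 levels, 3 without both replicate 1 arrays and 6 with array weights. Array weights ran from 0.246 for naive replicate 1 to 3.44 for ionomycin replicate 2. Pathway genes, 0 called in either direction, gave 1 lower with the replicate block, 2 higher and 12 lower with the block of 2 levels, 3 higher and 4 lower without both replicate 1 arrays, 7 higher and 21 lower with array weights, and 0 to 1 in each direction without 1 array. Over all genes, 87 higher and 18 lower became 119 and 33 with the replicate block, 677 and 744 with the block of 2 levels, 423 and 429 without both replicate 1 arrays, and 2240 and 1654 with array weights. The lower calls were 32 after centring, 9 with trend and robust settings and 9 with all rows tested. Without 1 array, 1 to 95 genes were higher and 0 to 55 lower. With all rows, more features enter the adjustment, and without 1 array fewer samples enter the fit; the cause of the other changes was not tested. The replicate block ended the call of Inpp5d and Gna14, made that of Vav1, and changed no other call among the genes named here.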
